A study of Mus musculus with 6 samples.

Results

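The alpha-2,3-sialyltransferases, encoded by the St3gal genes, were examined in liver RNA of male mice hybridised to an array focused on glycan genes. The family has 6 listed members, St3gal1 to St3gal6, and all 6 were measured, each by 1 probe set (the group of probes that reports 1 transcript), among 908 named genes and 1246 probe sets. The family was chosen with earlier results of these data known. Its probe sets were found by matching the RefSeq accession in each identifier to a mouse gene symbol, a step that used no measured values. There were 3 arrays from mice labelled wildtype and healthy and 3 from mice labelled diabetic, which the series describes as insulin-deficient. Every array was of total RNA from liver of a male. The sources used here do not give the strain, the age or the way diabetes was induced. The study's stated interest was in lower expression of glycosaminoglycan enzymes in diabetic liver and in plasma lipid turnover, and the sialyltransferases were on the same array.

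Sialyltransferases are Golgi enzymes that move sialic acid from CMP-sialic acid to the end of a sugar chain, and the St3gal enzymes attach it to a terminal galactose through an alpha-2,3 linkage. St3gal1 and St3gal2 act mainly on galactose linked to N-acetylgalactosamine, as in mucin-type O-glycans, and St3gal2 also on gangliosides. St3gal3, St3gal4 and St3gal6 act mainly on galactose linked to N-acetylglucosamine, as at the ends of N-glycan branches. St3gal5 makes the ganglioside GM3 from lactosylceramide. In liver, terminal sialic acid hides galactose on secreted plasma glycoproteins, and exposed galactose is bound by the asialoglycoprotein receptor of hepatocytes. GM3 is a membrane glycolipid studied for its effect on insulin receptor signalling.

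Values are log2 expression values made with RMA, a method that corrects background, normalizes between arrays and combines the probes of a probe set. They ran from 2.03 to 13.45 over all arrays, with array medians between 4.93 and 5.06. Hepatocyte markers had means above the median of all probe set means, 5.001, for 8 of 8 genes, though Fgf21 was close to it at 5.31. The receptor subunit Asgr1 stood at 12.32 ± 0.14 in wildtype and 12.32 ± 0.04 in diabetic liver (mean ± SD, 3 arrays per group, as for all means below). In whole liver, fewer cells of a type and less RNA per cell cannot be told apart.

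St3gal5 is printed first because it had the highest signal, the largest difference between groups and the largest spread within a group. The 300 bases around its annotated start, from 250 before to 50 after it, are at chr6:72097358-72097657 on the plus strand of GRCm38.p6 (RefSeq). Capitals mark each CCAAT (on either strand, so also ATTGG) and each GGGCGG (on either strand, so also CCGCCC).

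St3gal5: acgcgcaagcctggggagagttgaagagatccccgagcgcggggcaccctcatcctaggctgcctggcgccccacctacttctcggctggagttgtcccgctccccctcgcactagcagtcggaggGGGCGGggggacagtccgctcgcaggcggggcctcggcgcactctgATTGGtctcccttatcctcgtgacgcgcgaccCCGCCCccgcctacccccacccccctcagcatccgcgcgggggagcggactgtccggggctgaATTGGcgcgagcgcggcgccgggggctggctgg

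The window held 2 matches to CCAAT, 2 to GGGCGG and 0 to TATAAA, none of them overlapping another. CCAAT occurred in 37.4%, GGGCGG in 35.7% and TATAAA in 13.6% of 32851 RefSeq promoter windows of this length, both strands searched. With 33 CpG dinucleotides against a median of 7 over all windows, the St3gal5 window was among the 8.56% that held at least as many. The table gave 5 windows for 4 members. St3gal3 had 26 CpG, 4 CCAAT and 2 GGGCGG matches, and St3gal4 had 31 CpG, 0 CCAAT and 3 GGGCGG matches. St3gal6 had windows at 2 starts, 1 with 20 CpG, 0 CCAAT and 5 GGGCGG matches and 1 with 3 CpG, 1 CCAAT and 0 GGGCGG matches. TATAAA was found in 0 of the 5 windows. These matches describe the sequence only, since nothing in the array data measured binding.

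The first question was how the family's signals were ordered in liver. Averaged over the 6 arrays, St3gal5 was highest at 10.57, followed by St3gal1 at 9.12, St3gal3 at 8.72 and St3gal4 at 7.91, and then, far lower, by St3gal2 at 4.20 and St3gal6 at 4.05. The 4 bright members lay above the median of all probe set means, 5.001, and St3gal2 and St3gal6 below it. Probe sets differ in how brightly they report the same amount of RNA, so the order is one of array signals and not of transcript numbers.

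Within each array St3gal5 stood between the 92.9th and the 99.0th percentile of all probe sets, St3gal1 between the 90.4th and the 94.1st, and St3gal3 between the 88.1st and the 92.2nd. St3gal4 ranged from the 81.9th to the 88.9th percentile, St3gal2 from the 24.0th to the 36.9th and St3gal6 from the 25.2nd to the 31.8th. The step from St3gal4 to St3gal2 was the clear one: the lowest St3gal4 array exceeded the highest St3gal2 array by 3.27 on the log2 scale. All other neighbours overlapped. St3gal5 exceeded St3gal1 on 5 of 6 arrays, and 5 of 6 was also the count for St3gal1 over St3gal3, St3gal3 over St3gal4 and St3gal2 over St3gal6. No detection call was used, so the values of St3gal2 and St3gal6 were not separated from background.

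**Figure D1:**
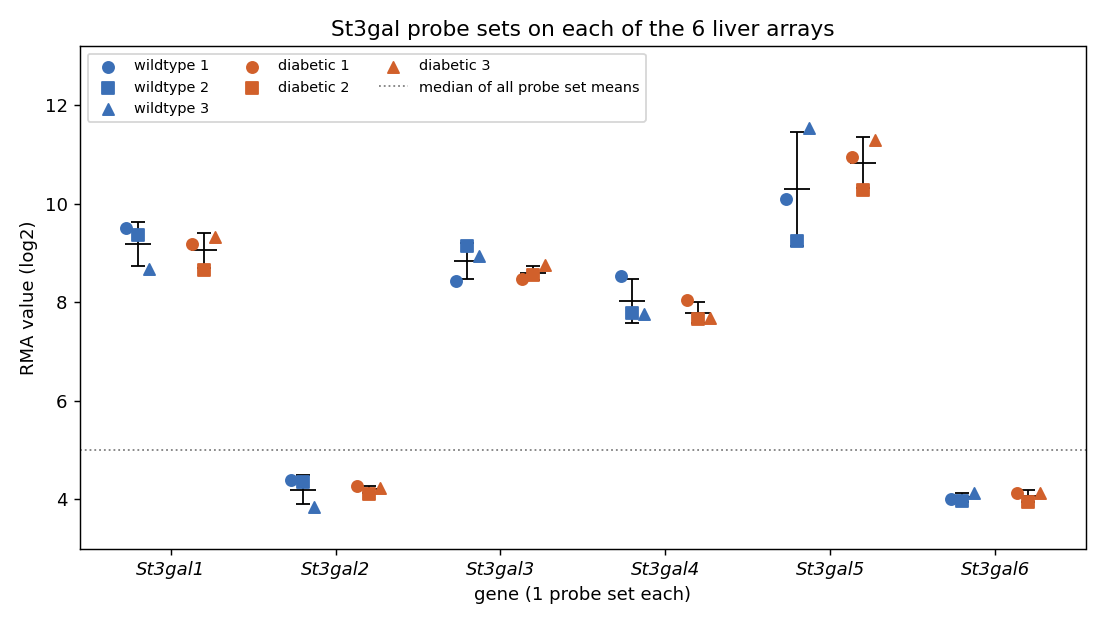
RMA values (log2, vertical axis) of the 6 St3gal genes on each array, with wildtype in blue, diabetic in orange, symbols for replicate numbers 1 to 3, and bars for the group mean ± SD (n = 3). St3gal5 spans 9.25 to 11.55 in wildtype liver, and St3gal2 and St3gal6 lie under the dotted median of all probe set means at 5.001.

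The main comparison asked whether any St3gal gene differed between diabetic and wildtype liver. In diabetic liver 3 members had a higher and 3 a lower mean, where 50.6% of all probe sets had a higher one, and 0 of 6 passed limma's test at an adjusted p under 0.05, where the background was 4 of 1246 probe sets, or 0.321%. At an unadjusted p under 0.05 the count was also 0 of 6, against a background of 37 probe sets or 2.97%. The groups overlapped for every member, while they did not overlap for 7.87% of all probe sets. The median difference was -0.06 over the members and 0.00 over all probe sets. The median size of a difference, sign ignored, was 0.18 over the members and 0.09 over all probe sets. These sizes do not compare probe sets of like spread. St3gal1, St3gal3, St3gal4 and St3gal5 are among the 312 brightest probe sets, whose median within-group SD was 0.25, against 0.14 over all probe sets.

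St3gal5, the GM3 synthase, gave the largest difference of the family. On the wildtype arrays numbered 1, 2 and 3 it read 10.10, 9.25 and 11.55, and on the diabetic arrays 10.95, 10.28 and 11.29. The highest and the lowest of the 6 values were thus both wildtype, and all 3 diabetic arrays lay between them. The wildtype mean was 10.30 ± 1.16 and the diabetic mean 10.84 ± 0.52, a difference of 0.54 or 1.45-fold. Its SE was 0.58 and its limma adjusted p was 0.942. The 95% confidence interval ran from -0.86 to 1.94, or from 0.551-fold to 3.83-fold, so the arrays left room for a fall as well as for a rise well above the measured one.

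The size of the St3gal5 difference rested on single wildtype arrays. It was 0.01 when wildtype 2 was left out and 1.16 when wildtype 3 was left out, with limma adjusted p of 0.997 and 0.62. Leaving out diabetic 2 gave 0.82 and leaving out diabetic 3 gave 0.31. With array weights the difference was 0.39. The 4.90-fold span of its values over the 6 arrays was matched or exceeded by only 7 of the 1246 probe sets, counting St3gal5 itself. Its within-group SD, pooled over both groups, was 0.90, against a median of 0.25 over the 312 brightest probe sets, of which 4 had an SD at least as large, again with St3gal5 counted.

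**Figure D2:**
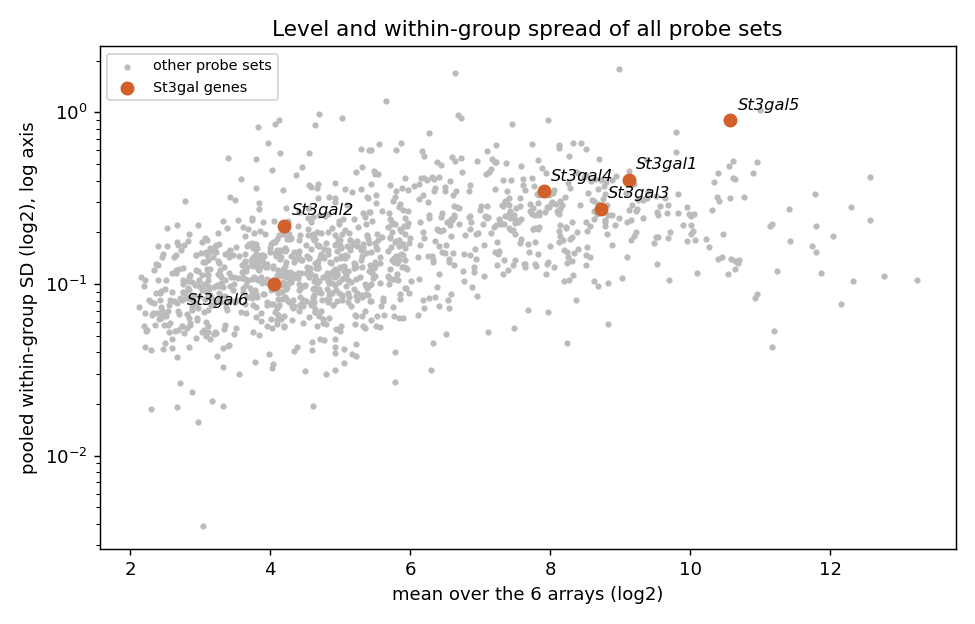
Mean over the 6 arrays (log2, horizontal axis) and pooled within-group SD (log2 units on a log axis, vertical) of every probe set, with the St3gal genes in orange. St3gal5, with an SD of 0.90, lies near the upper edge, and the other members lie within the cloud, from 0.10 for St3gal6 to 0.40 for St3gal1.

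Both groups carry replicate numbers 1 to 3, and the labels do not say what a number stands for. Over all probe sets, deviations of same-numbered arrays from their group means correlated at 0.397 for number 1. For numbers 2 and 3 the correlations were only 0.138 and 0.162. For St3gal5 the order of the arrays was 3, 1, 2 from high to low in wildtype and in diabetic liver alike. St3gal6 had the same order in both groups too, within a span of 0.20, and the other 4 members did not. How many of all probe sets kept their order was not counted, so these orders are a description only. Set against the wildtype array of its own number, the St3gal5 value in diabetic liver was 0.84 higher for number 1 and 1.03 higher for number 2, and for number 3 the difference was -0.25. With the replicate number as a block in the fit, the SE of the St3gal5 difference was 0.28 in place of 0.58 and the interval ran from -0.23 to 1.30. The blocked limma adjusted p was 0.822. The blocked fit called 0 of the 6 members and 0 of the 1246 probe sets, so the 4 calls of the unblocked fit, none of them an St3gal gene, were lost as well.

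**Figure D3:**
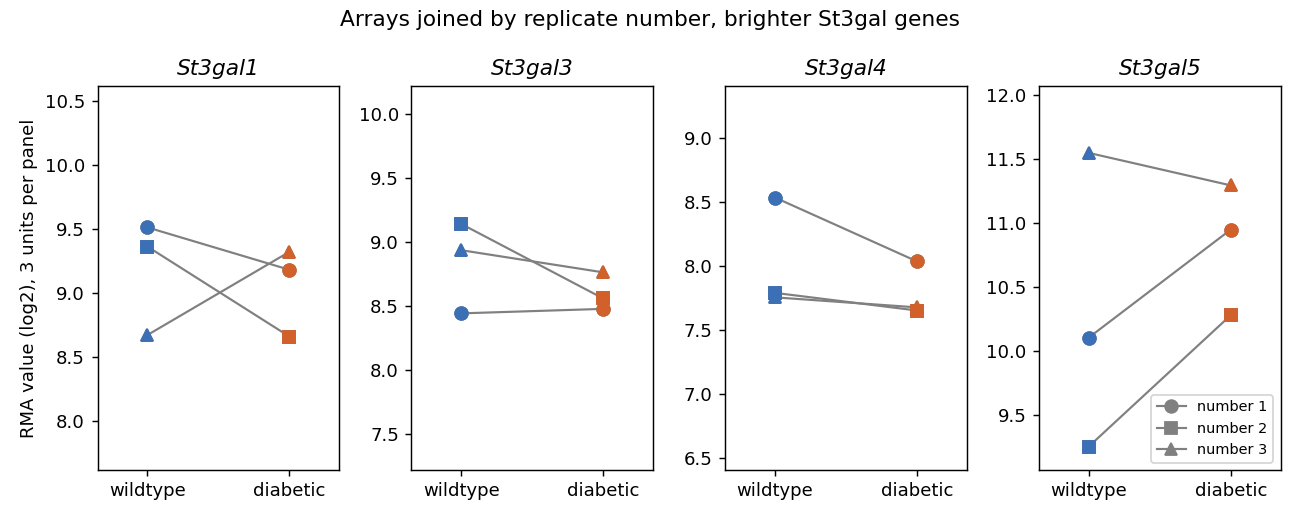
RMA values (log2, vertical axis, 3 units in each panel) of the 4 brighter St3gal genes in wildtype and diabetic liver, with lines joining arrays of the same replicate number. St3gal5 keeps the order 3, 1, 2 in both groups, and its line for number 3 falls by 0.25 where the other two rise; the lines of St3gal1 cross.

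The enzymes of galactose on N-acetylglucosamine came next. St3gal4, whose absence in mice is known to expose plasma glycoproteins to the asialoglycoprotein receptor, read 8.54, 7.79 and 7.76 on wildtype arrays 1 to 3 and 8.04, 7.66 and 7.68 on diabetic arrays 1 to 3. The arrays numbered 1 were the highest of both groups, and each diabetic value lay below the wildtype value of its number, by differences of -0.50, -0.14 and -0.08. The wildtype mean was 8.03 ± 0.44 and the diabetic mean 7.79 ± 0.21, a difference of -0.24 (SE 0.23, 95% confidence interval -0.80 to 0.32, limma adjusted p = 0.942). Without wildtype 1 it was 0.02, and with the replicate block the interval was -0.55 to 0.07 (limma adjusted p = 0.822). The St3gal4 probe set has the suffix that marks probes shared by several transcripts, so other transcripts could add to its signal.

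St3gal3, which can also act on galactose in the type 1 linkage to N-acetylglucosamine, read 8.44, 9.14 and 8.94 on wildtype arrays 1 to 3 and 8.48, 8.56 and 8.76 on diabetic arrays 1 to 3. Wildtype 2 and 3 lay above all diabetic arrays, and wildtype 1 lay below all of them. The wildtype mean was 8.84 ± 0.36 and the diabetic mean 8.60 ± 0.15, a difference of -0.24 with an SE of 0.19 and an interval of -0.69 to 0.21 (limma adjusted p = 0.928). This difference was -0.44 without wildtype 1 and -0.09 without wildtype 2, with limma adjusted p of 0.761 and 0.995. It was negative with every array left out in turn.

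St3gal6, an enzyme that contributes to sialyl Lewis x on selectin ligands, read 4.003, 3.98 and 4.14 on wildtype arrays 1 to 3 and 4.13, 3.94 and 4.13 on diabetic arrays 1 to 3. All 6 values lay within 0.20 of each other. The difference was 0.03 with an interval of -0.19 to 0.25 (limma adjusted p = 0.99), the narrowest interval of the family. At so low a signal background can mask a difference, so a narrow interval here does not bound the change in transcript.

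Of the O-glycan enzymes, St3gal1 read 9.51, 9.36 and 8.67 on wildtype arrays 1 to 3 and 9.18, 8.66 and 9.32 on diabetic arrays 1 to 3. Each group held 1 low array near 8.67, numbered 3 in wildtype and 2 in diabetic liver, and the other 4 arrays lay between 9.18 and 9.51. The wildtype mean was 9.18 ± 0.45 and the diabetic mean 9.06 ± 0.35, a difference of -0.13 (SE 0.27, interval -0.77 to 0.51, limma adjusted p = 0.99). The value changed sign without wildtype 1 (0.04) or without diabetic 2 (0.07), and it was -0.38 without wildtype 3.

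St3gal2 read 4.39, 4.35 and 3.85 on wildtype arrays 1 to 3 and 4.26, 4.12 and 4.23 on diabetic arrays 1 to 3. Wildtype 3 was the low array, as it was for St3gal1, and all diabetic values lay between it and the other wildtype arrays. The difference was 0.01 with an interval of -0.37 to 0.38 (limma adjusted p = 0.994). Without wildtype 3 it was -0.16.

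The intervals state what these arrays could tell. For 5 of 6 members the unblocked interval lay within 1 on the log2 scale, a 2-fold change either way, and St3gal5 was the exception. For 2 of 6 it lay within 0.5, or 1.41-fold, and these were the dim St3gal2 and St3gal6. Both also count among the 5, and at so low a signal a narrow interval does not bound the change in transcript.

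**Figure D4:**
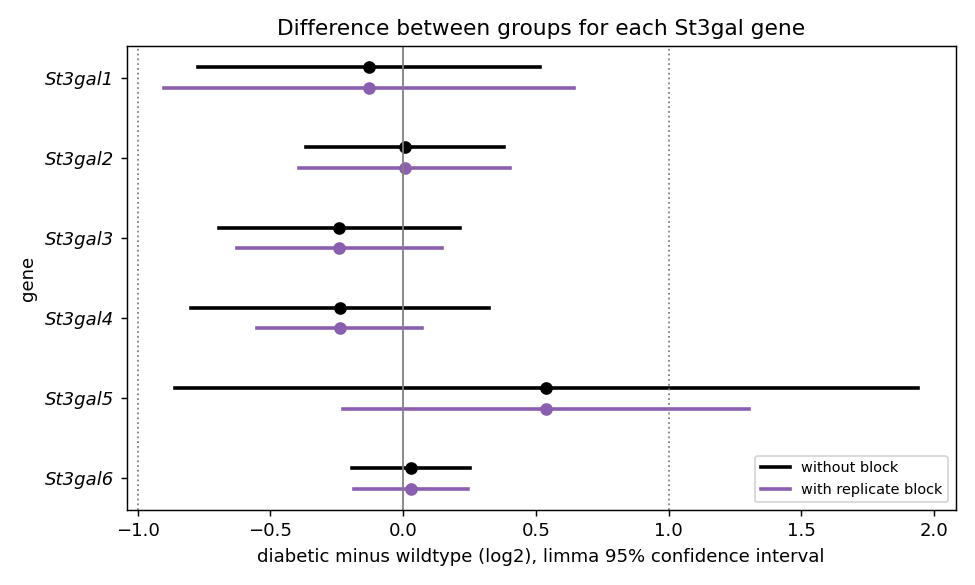
Diabetic minus wildtype difference (log2, horizontal axis) of each St3gal gene with limma's 95% confidence interval, without (black) and with (purple) the replicate number as a block; dotted lines mark 1 in either direction. All 12 intervals include 0, and the St3gal5 interval shortens from -0.86 to 1.94 to -0.23 to 1.30 with the block.

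**Figure D5:**
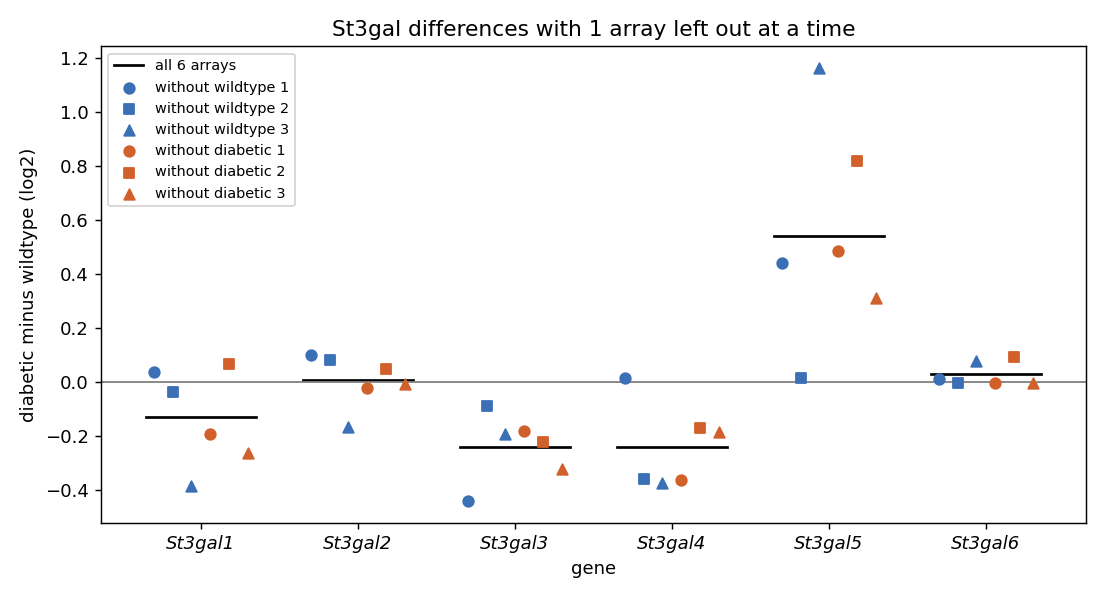
Diabetic minus wildtype difference (log2, vertical axis) of each St3gal gene with all 6 arrays (black line) and with 1 array left out (points; colour and symbol name the omitted array). St3gal5 runs from 0.01 to 1.16, and the points of St3gal1, St3gal2, St3gal4 and St3gal6 lie on both sides of 0.

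The genes whose pattern over the 6 arrays was most like that of St3gal5 were sought among 95 other named genes that spanned at least 1 on the log2 scale, as St3gal5 was the 1 member with such a span. They were Ugdh, which makes UDP-glucuronic acid (Pearson r = 0.94 over 6 arrays), Lgals1, the galactose-binding lectin galectin-1 (r = 0.91), and Col14a1, a collagen of the fibril-associated type (r = 0.90). Ugdh read 10.36, 9.85 and 10.90 on wildtype arrays 1 to 3 and 10.91, 10.64 and 11.14 on diabetic arrays 1 to 3, so its order of arrays was also 3, 1, 2 in both groups. Lgals1 read 6.59, 6.55 and 7.75 in wildtype and 7.68, 7.20 and 7.46 in diabetic liver, where its order was 1, 3, 2. Col14a1 read 3.93, 3.84 and 4.94 in wildtype and 4.43, 4.57 and 4.995 in diabetic liver, where its order was 3, 2, 1. These correlations are over few arrays, and all genes on an array are read from the same RNA and normalization. The 3 genes were picked as the highest, so the correlations are given as a description.

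Mean levels of the marker lists of other liver cells are given beside the St3gal5 values, since St3gal5 was highest on the arrays numbered 3. The mean of 6 macrophage and Kupffer cell markers, of 11 listed, was 5.74, 5.77 and 6.17 on wildtype arrays 1 to 3 and 5.59, 5.74 and 6.36 on diabetic arrays 1 to 3. That of 5 stellate and fibroblast markers, of 8 listed, was 5.26, 5.08 and 5.70 in wildtype and 5.07, 5.25 and 5.38 in diabetic liver, and that of 5 endothelial markers, of 11 listed, was 5.06, 4.95 and 5.15 in wildtype and 4.72, 4.81 and 5.25 in diabetic liver. The mean of 6 lymphocyte markers, of 11 listed, was 3.66, 3.76 and 3.74 in wildtype and 3.81, 3.84 and 3.82 in diabetic liver. The mean of 8 hepatocyte markers was 9.42, 9.70 and 10.08 in wildtype and 10.14, 9.99 and 10.29 in diabetic liver. The macrophage, stellate, endothelial and hepatocyte means were thus highest on the array numbered 3 of each group, as St3gal5 was. The lymphocyte mean was highest on number 2 of each group. No list mean kept the full St3gal5 order of 3, 1, 2 in both groups. The macrophage order was 3, 2, 1 in both, and the stellate and endothelial orders were 3, 2, 1 in diabetic liver only. The hepatocyte order was 3, 2, 1 in wildtype liver only. Of single genes, 5 of 6 macrophage markers were highest on number 3 in wildtype and 5 of 6 in diabetic liver, as were 4 of 5 and 3 of 5 stellate markers. The macrophage and Kupffer cell marker that was not was Clec4f in both groups. It read 6.05, 5.81 and 5.91 on wildtype arrays 1 to 3 and 5.71, 6.07 and 6.03 on diabetic arrays 1 to 3. The counts in wildtype and diabetic liver were 2 and 3 of 5 endothelial, 4 and 3 of 8 hepatocyte and 3 and 2 of 6 lymphocyte markers. How many of all probe sets were highest on number 3 was not counted, so these counts are a description only. The endothelial and hepatocyte means turned on 1 gene each, a check chosen after the values were seen. Without Vcam1 the endothelial mean was 5.47, 5.37 and 5.21 in wildtype liver, lowest on number 3, and 5.10, 5.12 and 5.42 in diabetic liver. Without Igfbp1 the hepatocyte mean was 9.87, 10.16 and 10.07 in wildtype and 10.07, 10.14 and 10.11 in diabetic liver, highest on number 2 in both. Igfbp1 itself read 6.26, 6.50 and 10.09 in wildtype and 10.65, 8.90 and 11.52 in diabetic liver. Of the 8 hepatocyte genes, 4 had higher and 4 lower means in diabetic liver. The differences ran from 2.74 for Igfbp1 and 1.03 for Mbl2 to -0.61 for Igfals, so the mean of this list is not a measure of hepatocyte content. The part of any cell type in the St3gal5 values was not tested. Limma called 0 of the markers of macrophages, lymphocytes (6 of 11 measured), endothelial and stellate cells, and 1 of 8 hepatocyte markers, Mbl2, against the background of 0.321%. The Mbl2 call had a limma adjusted p of 0.0412. It was lost with the replicate block (limma adjusted p = 0.142) and with eBayes with trend and robust, where 0 probe sets were called.

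The wider pathway was read from lists of related genes. Over 66 other genes of sialic acid and its acceptors, 36 had higher and 30 lower means in diabetic liver, with a median difference of 0.02 beside 0.00 over all probe sets, and 0 passed limma's adjusted threshold. At an unadjusted p under 0.05 there were 2, the lysosomal sialidase Neu1 and St6galnac3, against a background of 2.97%.

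Supply and turnover of sialic acid and its donor CMP-sialic acid were covered by 7 genes, 3 with higher and 4 with lower means and 0 called. The list includes the sialic acid lyase, so these counts do not give a direction of supply. Renbp, at -0.14, and Npl, the dim sialic acid lyase, at 0.09, had the smallest p values of these genes (limma adjusted p = 0.928 and 0.942). Of the 13 other sialyltransferases, 9 had higher and 4 lower means and 0 were called. Only 3 of these 13 had means above the median of all probe sets, compared with 4 of the 6 St3gal genes. Among them, St6gal1, which puts alpha-2,6-linked sialic acid on the same N-glycan ends, stood at 9.64 ± 0.21 in diabetic and 9.69 ± 0.30 in wildtype liver. The smallest p values of that list belonged to St6galnac3, at -0.27 (limma adjusted p = 0.928), and St8sia4, at 0.18 (0.928), both dim.

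Sialidases, which remove sialic acid, and Ctsa, which protects the lysosomal one, gave 2 higher and 2 lower means with 0 called. Neu1 had a wildtype mean of 7.86 ± 0.09 and a diabetic mean of 8.07 ± 0.02, a difference of 0.21 (limma adjusted p = 0.928), and Neu2 differed by 0.34 (adjusted p = 0.928). The galactosyltransferases and related enzymes that build the acceptors of St3gal1 to St3gal4 gave 5 higher and 6 lower means among 11 genes with 0 called. B4galt1 at -0.35 and Gcnt3 at 0.13 had the smallest p values of these 11 (limma adjusted p = 0.928 for both). Gcnt3 was dim, with a mean of 2.90 over the 6 arrays.

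Around GM3, the product of St3gal5, 13 glycosphingolipid genes gave 7 higher and 6 lower means with 0 called. B3galt4, which extends gangliosides, differed by 0.21, and Glb1, the lysosomal beta-galactosidase, by 0.35 (limma adjusted p = 0.928 for both). Genes that make or use the substrates next to GM3 are named for that role after their values were seen. Ugcg, which makes glucosylceramide, differed by -0.22 (SE 0.17). Of the lactosylceramide synthases, B4galt5 differed by -0.46 (SE 0.30) and the dimmer B4galt6 by 0.06 (SE 0.08). Of the enzymes that use GM3, B4galnt1 differed by -0.17 (SE 0.15) and the dim St8sia1 by 0.09 (SE 0.08). None of these 5 genes passed, with limma adjusted p from 0.928 to 0.975, and the groups overlapped for each of the 5. The brighter Ugcg, B4galt5 and B4galnt1 had lower means in diabetic liver, and the dim B4galt6 and St8sia1 had higher ones.

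On the side of recognition, 10 genes of sialyl Lewis x completion and selectin binding gave 4 higher and 6 lower means with 0 called. Fut9 at 0.16 and Selp at -0.30 had the smallest p values of these 10 (limma adjusted p = 0.928 for both). Fut9 was dim, with a mean of 2.64 over the 6 arrays. The 11 genes of the asialoglycoprotein receptor and the sialic acid-binding receptors gave 8 higher and 3 lower means with 0 called. Siglec15 at 0.12 and Mag at -0.12 had the smallest p values of that list (limma adjusted p = 0.928 and 0.942). The asialoglycoprotein receptor subunits Asgr1 and Asgr2 differed by 0.00 and 0.02, with intervals that both included 0.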

How the data were processed

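Liver RNA of 3 wildtype and 3 diabetic mice was hybridised 1 sample per array. The deposited values are log2 expression made by the authors with RMA, per the submitters' processing notes. The sources used here give neither its version nor its settings. The log2 scale was inferred from their range. RefSeq accessions were on 984 of 1246 probe sets, and 962 were named through a RefSeq gene table (GRCm38.p6), giving 908 genes. A gene with several probe sets was represented by the one with the highest mean. The 2 groups were compared with limma 3.58.1 in R 4.3.3 (lmFit, eBayes; 4 residual and 2.44 prior degrees of freedom), and p-values were adjusted by the Benjamini-Hochberg method across the 1246 probe sets. The fit was run on simulated data with independent noise and planted differences larger than those of the St3gal genes. That run does not show how well differences of the size seen here are found. The number of arrays limits the precision. The labels do not say that each array was a separate animal; if not, p-values measure only the spread between these samples.

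Same-numbered arrays' deviations from group means correlated at 0.397, 0.138 and 0.162 over all probe sets, so a blocked fit (replicate number as a term) was also made; the labels do not say what a number stands for. Members and lists were chosen with earlier results of these data known. Named genes were all St3gal members, the 2 genes of each list with the smallest p, and the 3 nearest in pattern to a member spanning at least 1; others are marked as chosen later. Alternatives were a median shift, quantile normalization, omission of probe sets below the median mean, eBayes with trend and robust, array weights, the block, a threshold of 0.10 and each array left out.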

Additional observations from a re-analysis of the deposited data

How the results depend on the processing

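No St3gal gene and none of the 66 other pathway genes was called under any alternative run. Over all probe sets the count of 4 calls was 0 with the replicate block and 0 with eBayes with trend and robust; it ran from 0 to 1 with 1 array left out, where fewer samples stand behind it, and was 3 or 4 otherwise. The cause of the other losses was not tested. With 1 array left out the differences ran from -0.38 to 0.069 for St3gal1, from -0.16 to 0.10 for St3gal2, from -0.37 to 0.016 for St3gal4 and from -0.0035 to 0.095 for St3gal6, so these 4 changed sign. Those of St3gal3 (-0.44 to -0.09) and St3gal5 (0.01 to 1.16) did not. Array weights turned St3gal2 to -0.011; the cause was not tested. The block moves no difference, since each number occurs once per group, and it changed no call of a member. Over all alternatives the limma adjusted p of the members ran from 0.62 to 0.999. St3gal2 and St3gal6 gave no value without the dim probe sets. Both are limited by signal over background, for which no detection call was at hand.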
